A study of Rattus norvegicus with 9 samples.

Results

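Resp18, Sorcs2, Nr2f2, Rffl, Adamts16, Plekha7 and Add1 are 7 rat genes put forward as hypertension candidates, and their kidney expression is described here in Dahl S, SHR and Dahl R rats. They were picked by name, with the strain differences of these same arrays already known, so their levels and differences are a description and carry no test. A probe was matched to 5 of the 7 through its RefSeq identifier. Those 5 stand among 10861 genes with a tested probe, of 13903 genes matched in all. No probe was matched to Adamts16 or Plekha7, and these genes are not analysed here.

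Kidney RNA came from 9 male rats aged 53 days, 3 of each strain: the salt-sensitive Dahl S, the spontaneously hypertensive rat (SHR) and the salt-resistant Dahl R. For every animal the labels give a shared day of birth, weaning at 30 days and a chow with 0.3% salt from then on, so no strain had been given a high-salt diet. Each rat gave 1 array, labelled with Cy3 and read in a single colour. The labels name no litter and no day of RNA preparation, so p-values measure the spread between these samples, which may be in part technical. Each strain differs from the others over its whole genome, and a difference between strains cannot be told apart by locus in this design.

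Blood pressure in these strains depends on how the kidney handles sodium, on vessel tone and on hormones, and rat genetics has traced parts of it to chromosome segments and then to single genes. Resp18 encodes a protein of the regulated secretory pathway of neuroendocrine cells, related to the luminal part of the secretory-granule protein encoded by Ptprn. Sorcs2 encodes a sorting receptor of the Vps10p-domain family, which binds neurotrophin precursors together with the receptor Ngfr. Nr2f2 encodes COUP-TFII, an orphan nuclear receptor that sets venous identity in endothelium and is active in mesenchyme. Rffl encodes an endosomal ubiquitin ligase, Adamts16 a secreted metalloprotease, Plekha7 an adaptor of adherens junctions, and Add1 the alpha subunit of adducin, which caps actin filaments and joins them to spectrin. Variants of adducin were tied to hypertension in the Milan strain, and disruption of Adamts16, Plekha7, Nr2f2 or Resp18 in Dahl S rats has been reported to change blood pressure.

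SHR replicate 3 stood apart, with 43.1% of its probes well above background, against 60.1% to 70.3% on the remaining arrays. That array also had a median local background of 88, against 43 to 45 elsewhere, 7.93% of its spots marked as outliers, against 1.49% to 2.62%, and a 75th percentile of the signal of 1462, against 2120 to 2751. The file headers place the arrays in 3 groups by scan time. Dahl S replicates 1, 2 and 3 were scanned with Dahl R replicate 1, SHR replicates 1 and 2 with Dahl R replicates 2 and 3, and SHR replicate 3 apart from all others. Dahl S and SHR thus meet only through Dahl R, and between these strains scan and strain cannot be told apart directly. The kidney label held: proximal tubule, thick limb and collecting duct markers were tested, with Umod, the uromodulin gene of the thick limb, at 221 to 345 times the 75th percentile over all arrays. All 5 candidates had 1 probe with 1 spot, none marked as an outlier, and all 5 were well above background on all 9 arrays.

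Levels are log2 signals relative to the 75th percentile of the same array, so 0 means a signal equal to that percentile, and a level is compared only between strains and not between genes. Of the 5 measured candidates, the values of Dahl S and Dahl R did not overlap in 4, those of Dahl S and SHR in 3, and those of SHR and Dahl R in 5. Over all tested genes the shares without overlap were 32.3%, 39.3% and 40.9% in the same order of comparisons. A difference of at least 1 on the log2 scale, which is 2-fold, was seen in 1 of 5 for Dahl S against Dahl R, where 4.59% of all tested genes reached it. It was seen in 2 of 5 for Dahl S against SHR (11.6% of all genes) and in 3 of 5 for SHR against Dahl R (8.30%). Because the genes were picked on these differences, nothing is read from their counts beside the shares.

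**Figure D1:**
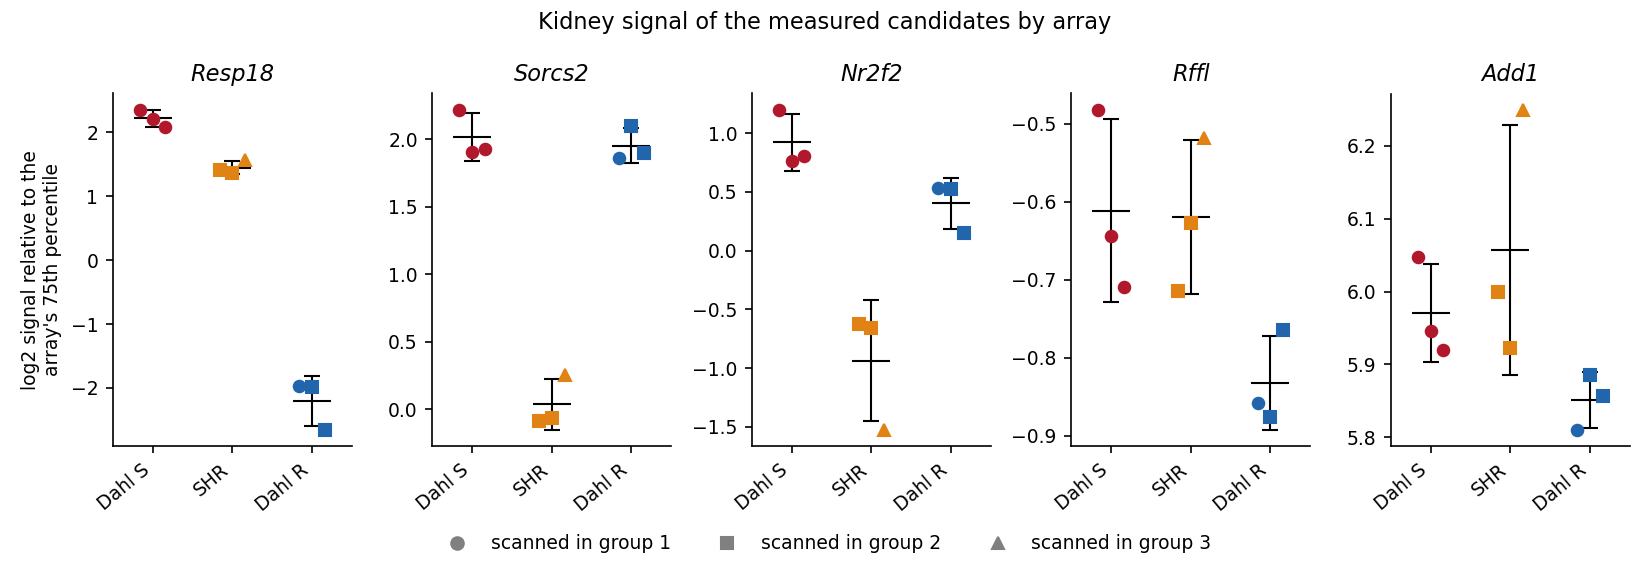
Signal of the 5 measured candidates on each array, as log2 relative to the array's 75th percentile (vertical axis, with its own range in each panel), by strain. Points are animals, with a shape for each scan group, and bars are the strain mean ± SD (n = 3). Resp18 is low in Dahl R alone, Sorcs2 and Nr2f2 are low in SHR alone, and Rffl and Add1 span less than 0.5 log2 units over all animals.

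Resp18 was high in Dahl S and SHR and low in Dahl R, and no blood pressure values were used here. Its level was 2.36, 2.21 and 2.09 in Dahl S kidneys, 1.41, 1.37 and 1.57 in SHR kidneys, and -1.97, -1.99 and -2.66 in Dahl R kidneys. The 3 strains did not overlap, and the order was Dahl S, then SHR, then Dahl R. As processed signal this was 10870 to 11350 in Dahl S, 4329 to 7309 in SHR and 407 to 684 in Dahl R. The raw signal was 239 to 266 times the local background in Dahl S, 57.7 to 182 times in SHR and 11.8 to 19.5 times in Dahl R, so the probe was measured and not at a floor in the low strain.

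The strain means of Resp18 were 2.22 ± 0.13 in Dahl S, 1.45 ± 0.10 in SHR and -2.21 ± 0.39 in Dahl R (SD, n = 3 each). Dahl S exceeded Dahl R by 4.43 ± 0.24 (SE), which is 21.5-fold, and 8 of the 10861 tested genes had a larger absolute difference. SHR exceeded Dahl R by 3.66 ± 0.23, or 12.6-fold, with 31 genes above it. The step between Dahl S and SHR was smaller: Dahl S exceeded SHR by 0.77 ± 0.10, or 1.71-fold, and 1927 genes differed more. Within the first scan group, the 3 Dahl S arrays exceeded the 1 Dahl R array by 4.19, and within the second the 2 SHR arrays exceeded the 2 Dahl R arrays by 3.71. With scan group as a block, the step of Dahl S over SHR was 0.48. SHR replicate 3, alone in its scan group, adds nothing to a blocked difference, and the first scan group rests there on 1 Dahl R array.

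Resp18 marks neuroendocrine cells, so genes of the adrenal medulla and neuroendocrine cells are set beside it. Of the 5 listed markers, 4 had a probe and 2 were tested. Chga and Dbh, which encode chromogranin A and the enzyme that makes noradrenaline, were well above background on 0 arrays. The summed level of Th and Chgb lay at 0.0302 to 0.0454 times the 75th percentile in Dahl S, 0.0514 to 0.106 times in SHR and 0.0353 to 0.044 times in Dahl R, and 0 of these 2 genes passed in any comparison. Dahl S and Dahl R overlapped in this sum, but its 2 genes went opposite ways between these strains. For Dahl S against Dahl R, Th had -0.99 ± 0.57 (adjusted p = 0.654, limma) and Chgb 0.60 ± 0.25 (adjusted p = 0.449). The mean of Chgb was lowest in Dahl R, as that of Resp18 was, and the mean of Th was lowest in Dahl S. For SHR against Dahl R, Chgb had 0.91 ± 0.25 (adjusted p = 0.0506). In the sum, SHR lay above both Dahl strains, but its sums include readings that were not well above background. Arrays with Th well above background numbered 2 in Dahl S, 2 in SHR and 3 in Dahl R. For Chgb they numbered 3, 2 and 3 in the same order. Resp18 was also higher in SHR than in Dahl R, and the part of these cells in the level of Resp18 was not tested.

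The promoter of Resp18 is shown because this gene had the widest strain difference of the 5, and that of Sorcs2 because its low strain is another one. Both are the RefSeq reference on the GRCr8 build, from 250 bases before to 50 after the annotated start, 5′ to 3′ on the gene's strand: chr9:84220137-84220436 on the minus strand for Resp18 and chr14:78595837-78596136 on the plus strand for Sorcs2. Capitals mark a CCAAT box (CCAAT) or a GC box (GGGCGG) read on either strand.
Resp18: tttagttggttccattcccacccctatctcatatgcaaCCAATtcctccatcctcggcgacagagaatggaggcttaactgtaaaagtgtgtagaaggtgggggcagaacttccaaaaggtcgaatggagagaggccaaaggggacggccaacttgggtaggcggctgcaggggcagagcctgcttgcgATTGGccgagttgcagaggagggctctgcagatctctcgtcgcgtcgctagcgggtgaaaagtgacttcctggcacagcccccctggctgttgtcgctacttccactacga
Sorcs2: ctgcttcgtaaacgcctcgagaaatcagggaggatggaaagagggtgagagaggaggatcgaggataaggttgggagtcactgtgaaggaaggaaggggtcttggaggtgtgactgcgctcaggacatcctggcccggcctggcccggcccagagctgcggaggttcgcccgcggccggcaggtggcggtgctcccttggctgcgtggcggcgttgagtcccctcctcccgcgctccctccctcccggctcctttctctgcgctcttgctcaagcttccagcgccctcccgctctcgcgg
The Resp18 window held 2 CCAAT boxes, 1 on each strand, and no GC box. The Sorcs2 window held neither. TATAAA, TGACGTCA (the cyclic AMP response element) and AGGTCA (the nuclear receptor half-site), searched on both strands, were found in neither window, and no match overlapped another. Of 33469 promoters of the same length, 37.5% held CCAAT, 33.1% GGGCGG, 14.2% TATAAA, 1.83% TGACGTCA and 16.2% AGGTCA. These letters are those of the reference rat, and the alleles of Dahl S, SHR and Dahl R were not examined.

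Sorcs2 was low in SHR, and the Dahl strains overlapped each other. Its level was 2.22, 1.91 and 1.93 in Dahl S kidneys, -0.09, -0.07 and 0.25 in SHR kidneys, and 1.86, 2.10 and 1.90 in Dahl R kidneys. Every SHR animal lay below every animal of the Dahl strains, and Dahl S overlapped Dahl R. The means were 2.02 ± 0.18 in Dahl S, 0.03 ± 0.19 in SHR and 1.95 ± 0.13 in Dahl R (SD, n = 3 each). Dahl S exceeded SHR by 1.98 ± 0.15 (SE), or 3.95-fold, and 358 of 10861 genes differed more. SHR lay below Dahl R by 3.78-fold (log2 difference -1.92 ± 0.13), and 202 genes differed more.

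Dahl S and Dahl R differed by 0.06 ± 0.13 in Sorcs2, and 8146 genes differed more. Within the second scan group, the 2 SHR arrays gave -2.08 against the 2 Dahl R arrays. Leaving out SHR replicate 3 gave 2.09 for Dahl S against SHR and -2.03 for SHR against Dahl R, so the low level in SHR was present without that array. The sign of the small difference between the Dahl strains was not settled, at -0.09 under normexp background correction and 0.16 with scan group as a block.

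Nr2f2 was also low in SHR, with levels in the order Dahl S, Dahl R and SHR. Its level was 1.20, 0.76 and 0.81 in Dahl S kidneys, -0.62, -0.66 and -1.53 in SHR kidneys, and 0.54, 0.52 and 0.16 in Dahl R kidneys. The 3 strains did not overlap, but the gap between the lowest Dahl S and the highest Dahl R animal was 0.23. SHR replicate 3 stood below the other SHR animals, and there the raw signal was 9.45 times the local background.

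The means of Nr2f2 were 0.92 ± 0.24 in Dahl S, -0.94 ± 0.51 in SHR and 0.40 ± 0.22 in Dahl R (SD, n = 3 each). Dahl S exceeded SHR by 1.86 ± 0.33 (SE), or 3.63-fold, with 405 genes above it, and SHR lay 2.53-fold below Dahl R (-1.34 ± 0.32), with 470 genes above it. Without SHR replicate 3 the same differences were 1.56 and -1.04. Dahl S exceeded Dahl R by 0.52 ± 0.19, or 1.43-fold, and 1362 genes differed more. Within scan groups the values were 0.39 for Dahl S against Dahl R and -0.98 for SHR against Dahl R, and with the block Dahl S exceeded SHR by 1.37.

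Venous endothelium and stromal cells express Nr2f2, so markers of endothelium as a whole, not of its venous part, and of fibroblasts are given beside it. In whole-kidney RNA, fewer cells of a type and less RNA per cell cannot be told apart. The endothelial genes Pecam1 and Cdh5 summed to 2.16 to 2.42 times the 75th percentile in Dahl S, 2.2 to 2.3 times in SHR and 1.63 to 1.97 times in Dahl R. The fibroblast genes Pdgfra and Pdgfrb summed to 17 to 21.7 times in Dahl S, 17.5 to 19.9 times on the 2 SHR arrays with both genes usable, and 18.2 to 20.6 times in Dahl R. SHR overlapped Dahl S in both sums. Against Dahl R, SHR lay above in the endothelial sum and overlapped in the fibroblast sum. Cdh5 was well above background on 1 Dahl S, 2 SHR and 2 Dahl R arrays, and the endothelial sum is mostly Pecam1. In any comparison, 0 of these 4 genes passed. Of the smooth muscle genes only Des was tested, at 2.11 to 2.55 times in Dahl S, 0.65 to 2.16 times in SHR and 1.57 to 2.08 times in Dahl R. Its differences had the direction of those of Nr2f2, at 0.76 ± 0.41 for Dahl S against SHR (adjusted p = 0.249, limma) and -0.43 ± 0.41 for SHR against Dahl R (adjusted p = 0.525). The part of endothelial, stromal and muscle cells in the level of Nr2f2 was not tested. Collecting duct genes passed as higher in SHR: 3 of 3 (Aqp2, Scnn1b and Atp6v1b1) against Dahl R and 2 of 3 against Dahl S. Of all tested genes, 7.84% and 8.41% passed as higher in SHR in the same order. Against Dahl R their adjusted p-values were 0.0356, 0.00303 and 0.036 (limma). Those of Aqp2 and Scnn1b against Dahl S were 0.0383 and 0.00185. The calls of Aqp2 and Atp6v1b1 were not followed through the processing alternatives. The sums were 71.7 to 92.9 in Dahl S, 111 to 135 in SHR and 69.7 to 93.6 in Dahl R. Aqp2 made up most of each sum. Markers of other cell types also passed between Dahl S and SHR (limma). The proximal tubule gene Cubn (adjusted p = 0.0308), the red cell gene Alas2 (0.0257) and the nerve gene Tubb3 (0.0362) were higher in Dahl S. The podocyte gene Podxl (0.0154) was lower in Dahl S. These calls were not followed through the alternatives either. The part of any of these shifts in the levels of Sorcs2 and Nr2f2 was not tested.

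Rffl and Add1 stayed within narrow limits. Rffl had levels of -0.48, -0.64 and -0.71 in Dahl S, -0.72, -0.63 and -0.52 in SHR, and -0.86, -0.88 and -0.76 in Dahl R. Dahl S and SHR overlapped, and Dahl R lay lowest by a gap of 0.05 to each. Dahl S exceeded Dahl R by 0.22 ± 0.08 and SHR exceeded Dahl R by 0.21 ± 0.07, which is 1.16-fold for SHR, while Dahl S and SHR differed by 0.01 ± 0.09 (SE, n = 3 each). Of all tested genes, 3861 differed more than Rffl between Dahl S and Dahl R.

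Add1 had levels of 6.05, 5.95 and 5.92 in Dahl S, 6.00, 5.92 and 6.25 in SHR, and 5.81, 5.89 and 5.86 in Dahl R. Dahl R again lay lowest, by gaps of 0.03 and 0.04, and Dahl S overlapped SHR. The differences were 0.12 ± 0.05 for Dahl S against Dahl R, -0.09 ± 0.11 for Dahl S against SHR and 0.21 ± 0.10 for SHR against Dahl R (SE, n = 3 each). The first turned to -0.05 under normexp. The highest Add1 value was that of SHR replicate 3, and without that array SHR exceeded Dahl R by 0.11.

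**Figure D2:**
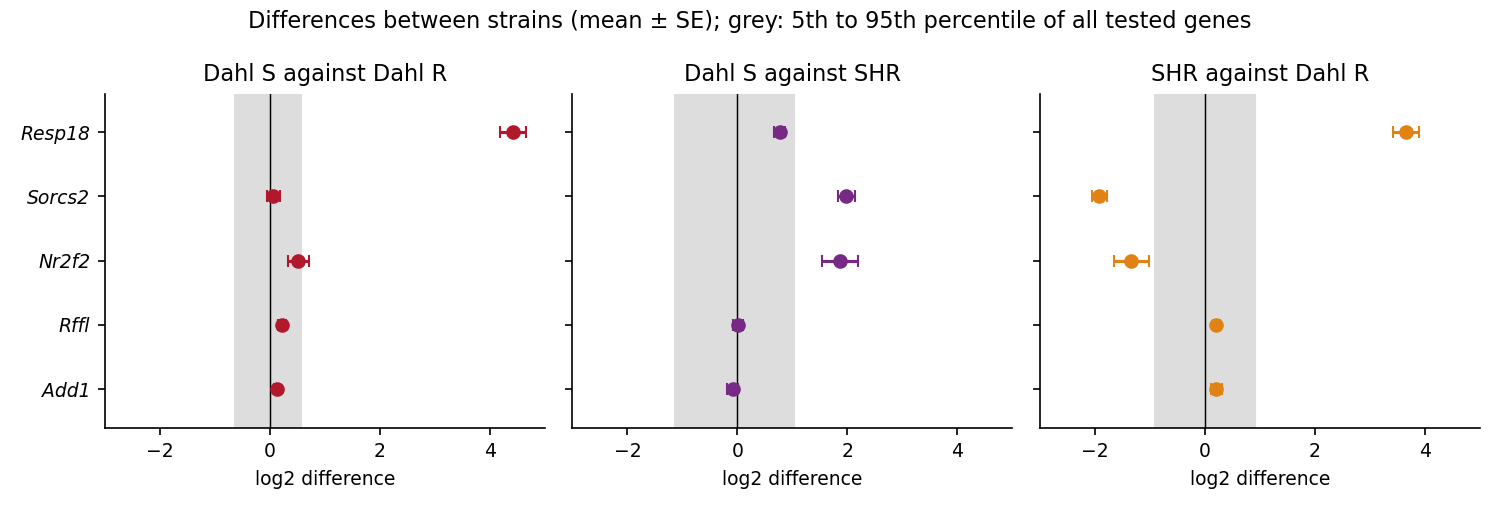
Differences between strain means for the 5 candidates, in log2 units (horizontal axis) ± SE from 3 arrays per strain, with a panel for each comparison. The grey band runs from the 5th to the 95th percentile of 10861 tested genes. Resp18 lies beyond the band in both comparisons with Dahl R, and Sorcs2 and Nr2f2 lie beyond it in both comparisons with SHR.

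Genes with the profile most like each candidate were ranked by Pearson r of log2 level over the 9 arrays, among 9004 genes. The r follows from that ranking and from 3 strain means shared by all genes, and it is given as a description. For Resp18 they were Ly6i, a Ly6-family surface protein (r = 0.995), Xdh, which makes uric acid from purines (0.994), and the orphan receptor gene Mrgprf (0.986). Ly6i was 3.69 higher in Dahl S and 3.14 higher in SHR than in Dahl R. For Xdh only a bound can be given, since 0 Dahl R arrays were well above background: the excess over Dahl R was at least 53.7-fold in Dahl S and at least 22.01-fold in SHR. Mrgprf followed the same order with smaller steps, 0.80 and 0.63. In all, 44 genes had an r with Resp18 above 0.9.

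For Sorcs2 the nearest were Ankrd16 (r = 0.995), Selenoi, which makes phosphatidylethanolamine (0.994), and Fgr, a Src-family kinase of myeloid cells (0.993). Dahl S exceeded SHR by 1.11 in Ankrd16, 2.16 in Selenoi and 4.09 in Fgr, the last well above background on 2 of 3 SHR arrays. For Nr2f2 they were Chsy1, which builds chondroitin chains (r = 0.996), the calcium channel subunit gene Cacna2d1 (0.993) and Cdyl2 (0.991), with Dahl S above SHR by 0.80, 1.53 and 0.74. An r above 0.9 was found for 296 genes with Sorcs2 and 343 with Nr2f2. Leaving out SHR replicate 3 left r at 0.984 or more for these 6 genes.

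For Rffl the closest were the cell-cycle inhibitor gene Cdkn1c (r = 0.959), Stk32c (0.942) and the sugar transporter gene Slc50a1 (0.942), and 18 genes passed 0.9. Stk32c was well above background on 2 Dahl S, 2 SHR and 1 Dahl R arrays. For Add1 they were Metap1, which removes the first methionine of proteins (0.988), Pitpnm1 (0.977) and Zfp292 (0.974), and without SHR replicate 3 these fell to 0.958, 0.921 and 0.913. Add1 differed little between strains, and 275 genes had an r above 0.9 with it.

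The genes lying next to each candidate were read from the gene order of GRCr8, taking the 5 nearest tested genes on each side, with the candidates' own values already known. Over these 50 neighbours, 0 passed between Dahl S and Dahl R at an adjusted p of 0.05 (limma, Benjamini-Hochberg over all probes). In that comparison 1.40% of all probes passed, with 0.865% of genes higher and 0.783% lower in Dahl S. Between Dahl S and SHR, 2 neighbours were higher and 8 lower in Dahl S, beside 7.35% and 8.41% of all genes (15.7% of probes). Between SHR and Dahl R, 2 were higher and 0 lower in SHR, beside 7.84% and 5.80% of genes (13.0% of probes).

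Resp18 stood apart from the genes around it on chromosome 9. Its neighbours Glb1l, Stk16, Tuba4a, Dnajb2 and Ptprn on one side and Dnpep, Des, Speg, Gmppa and Asic4 on the other differed by -0.48 to 0.69 between Dahl S and Dahl R, and by -1.03 to 0.75 between SHR and Dahl R. Ptprn, the relative of Resp18 and its nearest measured neighbour, had the lowest value in each, at -0.48 ± 0.43 (adjusted p = 0.82) and -1.03 ± 0.43 (adjusted p = 0.165). The highest Dahl S over Dahl R value was that of Asic4, a member of the acid-sensing channel family, at 0.69 ± 0.18 (adjusted p = 0.154). Tuba4a, an alpha-tubulin gene, was the only one of the 10 past the threshold in any comparison, and was lower in Dahl S than in SHR (-0.52 ± 0.12, adjusted p = 0.0232), a call that held in 10 of 17 alternatives and not without Dahl S replicate 1 or 2 or SHR replicate 1. With scan group as a block the difference was -0.39 (adjusted p = 0.405).

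Around Sorcs2 on chromosome 14, 0 of 10 neighbours passed in any comparison. Its next gene Psapl1 differed by -1.42 ± 0.41 for Dahl S against SHR (adjusted p = 0.0529), a direction opposite to that of Sorcs2, from a signal well above background on 1 Dahl S and 2 SHR arrays. Add1 lies on the same chromosome with 12 measured genes between them. Of the Add1 neighbours only Grk4, a receptor kinase also listed as a blood pressure candidate, passed, and was lower in Dahl S than in SHR (-0.53 ± 0.14, adjusted p = 0.0443), in 3 of 17 alternatives and not with scan group as a block (adjusted p = 0.379).

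Around Nr2f2 on chromosome 1, the transporter gene Slco3a1 was higher in Dahl S than in SHR (1.71 ± 0.40, adjusted p = 0.0262), as Nr2f2 was, and stood on 2 of 3 SHR arrays well above background. For SHR against Dahl R it had -1.34 ± 0.40 (adjusted p = 0.0681). The ceramide synthase gene Cers3 (-0.90 ± 0.11, adjusted p = 0.00208), Lrrc28 (-0.75 ± 0.16, adjusted p = 0.0179) and the anchoring-protein gene Akap13 (-0.44 ± 0.12, adjusted p = 0.0474) were lower in Dahl S than in SHR, opposite to Nr2f2. Akap13 was also higher in SHR than in Dahl R (0.46 ± 0.12, adjusted p = 0.0467). The Dahl S against SHR call of Cers3 held in 16 of 17 alternatives (-0.10 under normexp), Lrrc28 in 12, Slco3a1 in 9 and Akap13 in 4. The SHR against Dahl R call of Akap13 held in 3, and was lost without any 1 of the Dahl S or Dahl R arrays or SHR replicate 2. With scan group as a block, Cers3 passed (adjusted p = 0.029), while Lrrc28 (0.165), Slco3a1 (0.0789) and Akap13 (0.283) had adjusted p-values above the threshold for Dahl S against SHR. Slco3a1 was lost without any 1 of the 3 Dahl S arrays or Dahl R replicate 2, with differences of 1.19 to 2.65 over all settings.

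Around Rffl on chromosome 10 lies a chemokine cluster. Ccl2, which draws monocytes, was higher in Dahl S than in SHR (0.65 ± 0.15, adjusted p = 0.0275), while Ccl7 (-1.40 ± 0.36, adjusted p = 0.0351) and the chaperonin gene Cct6b (-0.64 ± 0.14, adjusted p = 0.02) were lower. Ccl7 and Cct6b were each well above background on 2 of 3 SHR arrays. Ccl11, which draws eosinophils, was at least 4.54-fold higher in SHR than in Dahl S (adjusted p = 0.00242), with 0 Dahl S and 2 SHR arrays well above background. It was also higher in SHR than in Dahl R (2.02 ± 0.53, adjusted p = 0.0462), with 2 arrays of each well above background, in 3 of 17 alternatives. For Dahl S against SHR, Ccl11 held in 14 of 17 alternatives. Its call was lost under normexp (-0.27), under quantile normalization and in the authors' values. In the same comparison Cct6b held in 11 (-0.13 under normexp), Ccl7 in 8 and Ccl2 in 7. Without Dahl S replicate 2 the calls of Ccl2, Ccl7 and Cct6b were lost, as they were with scan group as a block (adjusted p = 0.393, 0.157 and 0.135). Rffl itself differed by 0.01 between these strains.

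**Figure D3:**
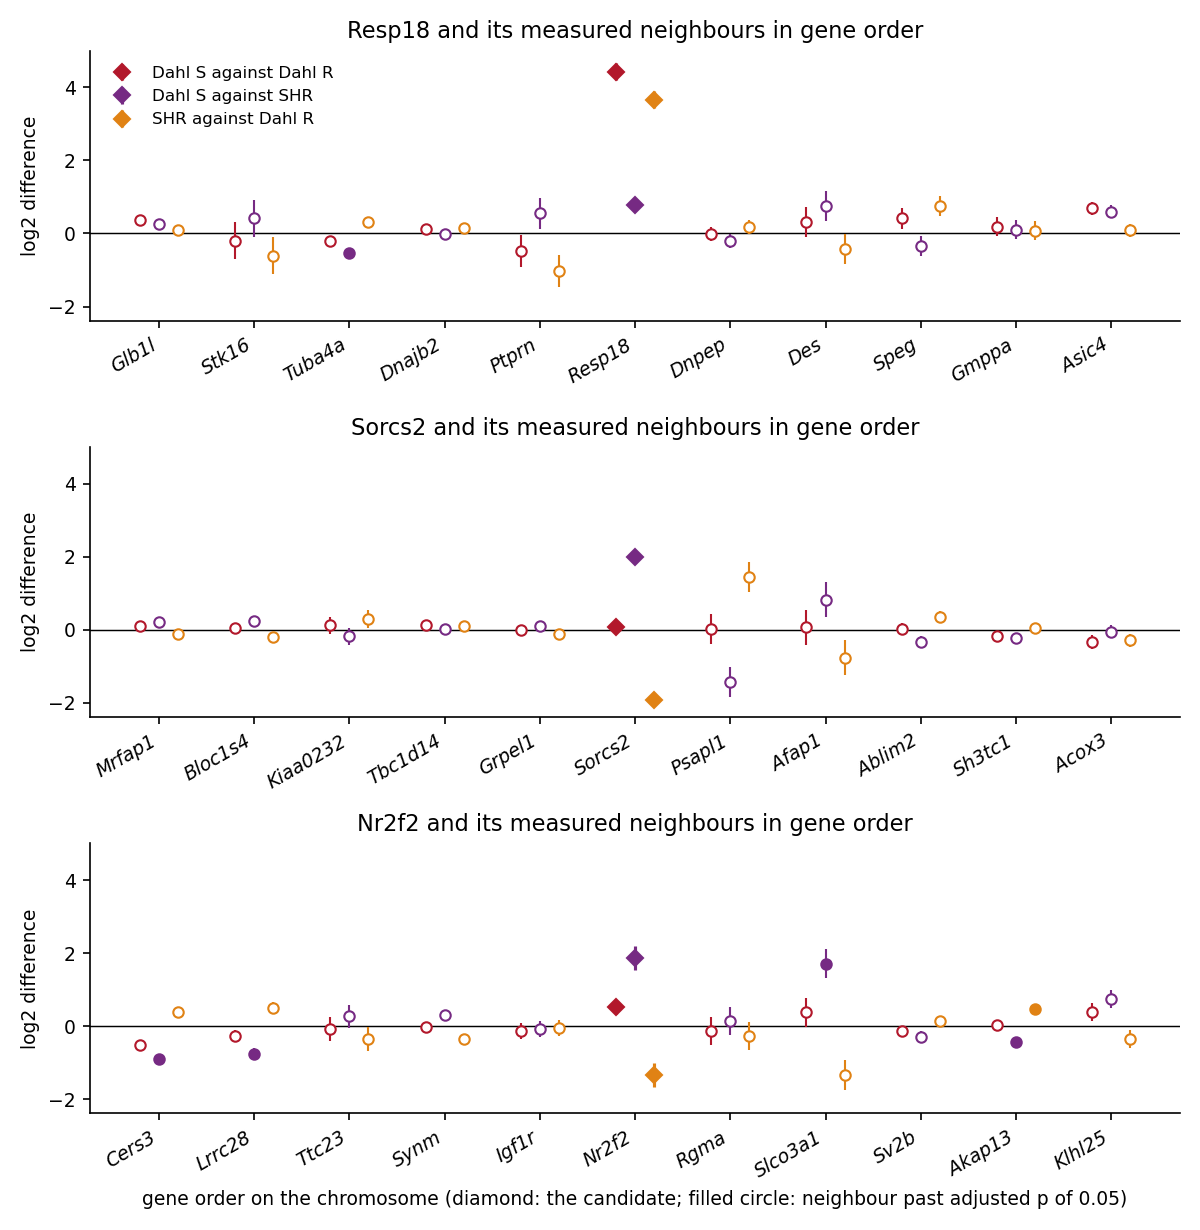
Log2 differences (vertical axis, ± SE) of Resp18, Sorcs2 and Nr2f2 (diamonds) and of the 5 tested genes on either side of each in GRCr8 gene order (circles, filled where the adjusted p was under 0.05). Resp18 stands at 4.43 and 3.66 in its comparisons with Dahl R while its neighbours lie between -1.03 and 0.75, and Slco3a1 is the neighbour whose values come nearest to those of Nr2f2.

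Paralogs, ligands, partners and substrates of the 7 candidates formed a list of 61 genes, of which 37 were tested. Between Dahl S and Dahl R, 0 rose, 0 fell and 37 did not pass, with a median log2 difference of 0.08 beside 0.03 over all tested genes, of which 0.865% were higher and 0.783% lower. For Dahl S against SHR, 1 rose, 0 fell and 36 did not pass (2.7% and 0%, beside 7.35% and 8.41% of all genes, median -0.25 beside -0.07). For SHR against Dahl R, 3 rose, 1 fell and 33 did not pass (8.11% and 2.7%, beside 7.84% and 5.80% of all genes, median 0.27 beside 0.09).

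The gene past the threshold in both comparisons with SHR was Scg2, secretogranin II of secretory granules. It was higher in Dahl S than in SHR (2.00 ± 0.32, 3.99-fold, adjusted p = 0.00647) and lower in SHR than in Dahl R (-1.29 ± 0.32, adjusted p = 0.0399), with 2 of 3 SHR arrays well above background. Between SHR and Dahl R, receptors that work with Sorcs2 and its relatives stood the other way. Between Dahl S and SHR, 0 genes of this list passed as lower in Dahl S. Ngfr, the low-affinity neurotrophin receptor, was higher in SHR than in Dahl R (1.23 ± 0.26, adjusted p = 0.0216), as were Ntrk2, the receptor of brain-derived neurotrophic factor (1.05 ± 0.20, adjusted p = 0.013, on 2 of 3 SHR arrays well above background), and Sort1, which encodes sortilin (0.62 ± 0.14, adjusted p = 0.0262). Sorcs3, the measured close relative of Sorcs2, had -0.20 for Dahl S against SHR (adjusted p = 0.406) and -0.12 for SHR against Dahl R (adjusted p = 0.638).

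The Scg2 call held in 14 of 17 alternatives for Dahl S against SHR and in 5 for SHR against Dahl R, and those of Ngfr, Ntrk2 and Sort1 in 10, 14 and 11. With scan group as a block both Scg2 calls were lost (1.32, adjusted p = 0.178, for Dahl S against SHR and -0.85, adjusted p = 0.11, for SHR against Dahl R), as they were under quantile normalization and in the authors' values. All 3 receptor calls were lost under normexp and without Dahl R replicate 2 or 3.

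Relatives of Nr2f2 and Rffl did not pass. Nr2f1, the sister gene of Nr2f2, had -0.44 ± 0.15 for Dahl S against SHR (adjusted p = 0.0886), opposite in sign to Nr2f2, and 0.39 for SHR against Dahl R (adjusted p = 0.139). Nr2f6, a more distant relative, had 0.04 in each of these comparisons (adjusted p = 0.801 and 0.843). Rnf34, the relative of Rffl, had 0.10 for Dahl S against SHR (adjusted p = 0.631) and -0.11 for SHR against Dahl R (adjusted p = 0.619). Ptprn2, a relative of Resp18, was well above background on 1 array and was not tested. Sorcs1, Sorl1, Zfpm2, Adamts18, Plekha5, Plekha6 and Sh2b3 had no matched probe.

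Other genes that rat work ties to blood pressure or salt handling formed a list of 72, of which 53 were tested. Gper1, a membrane estrogen receptor gene, was well above background on 0 arrays and was left out. The list was written with results for some of its members known, Gstm1, Ephx2, Cd36, Cyp2c11, Sgk1 and Scnn1b among them. Between Dahl S and Dahl R, 2 rose, 2 fell and 49 did not pass, or 3.77% in each direction beside 0.865% and 0.783% of all genes, with a median of 0.00 beside 0.03. For Dahl S against SHR, 10 rose, 12 fell and 31 did not pass (18.9% and 22.6%, beside 7.35% and 8.41% of all genes, median -0.12 beside -0.07). For SHR against Dahl R, 9 rose, 6 fell and 38 did not pass (17% and 11.3%, beside 7.84% and 5.80%, median -0.01 beside 0.09).

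The 4 candidates past the threshold between Dahl S and Dahl R were an enzyme of arachidonic acid and steroid oxidation, Cyp2c11 (-4.59 ± 0.57, adjusted p = 0.00966), the kidney epoxygenase gene Cyp2c23 (-0.88 ± 0.11, adjusted p = 0.016), the glutathione transferase gene Gstm1 (0.96 ± 0.17, adjusted p = 0.0437) and Sod3, extracellular superoxide dismutase (0.63 ± 0.09, adjusted p = 0.016). None of these 4 calls held in all 17 alternatives: Cyp2c11 held in 10, Cyp2c23 in 7, Sod3 in 5 and Gstm1 in 4. Leaving out Dahl S replicate 2, Dahl R replicate 1 or Dahl R replicate 2 ended each of them, while their direction was the same throughout. With scan group as a block Sod3 passed (adjusted p = 0.0493), while Cyp2c11 (0.0615), Cyp2c23 (0.0766) and Gstm1 (0.171) had adjusted p-values above the threshold. Resp18 at 4.43 stood near Cyp2c11 in size and opposite to it in sign.

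SHR stood apart from both Dahl strains in several candidates, as it did in Sorcs2 and Nr2f2. Ephx2, which hydrolyses arachidonic acid epoxides, was lower in Dahl S than in SHR (-3.90 ± 0.12, adjusted p = 9.74e-06) and higher in SHR than in Dahl R (3.96 ± 0.12, adjusted p = 9.55e-06), on 2 usable SHR arrays. The fatty acid translocase gene Cd36 (2.46 ± 0.22, adjusted p = 0.000375) and Endog, a mitochondrial nuclease (2.11 ± 0.10, adjusted p = 2.3e-05, on 2 of 3 SHR arrays well above background), stood higher in Dahl S than in SHR. They were lower in SHR than in Dahl R (-2.46 ± 0.22, adjusted p = 0.000459, and -2.23 ± 0.10, adjusted p = 1.6e-05). All calls of these 3 genes held in all 17 alternatives.

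Angiotensinogen, Agt, was higher in Dahl S than in SHR (1.40 ± 0.17, adjusted p = 0.00185) and lower in SHR than in Dahl R (-1.40 ± 0.17, adjusted p = 0.00217), the same standing of the strains as in Sorcs2, and both calls held in all 17 alternatives. The sodium channel subunit Scnn1b and the endothelin receptor Ednrb were lower in Dahl S than in SHR (-1.62 ± 0.20, adjusted p = 0.00185, and -1.34 ± 0.23, adjusted p = 0.00784) and higher in SHR than in Dahl R (1.49 ± 0.20, adjusted p = 0.00303, and 1.06 ± 0.23, adjusted p = 0.0229). Scnn1b is among the collecting duct genes that passed as higher in SHR above, and the part of collecting duct cells in its difference was not tested. Cyp2c11 (-2.59 ± 0.57, adjusted p = 0.0206), Add2 (1.49 ± 0.32, adjusted p = 0.0193) and Gstm1 (1.15 ± 0.17, adjusted p = 0.00436) were also among the 10 largest for Dahl S against SHR. Cyp2c23 (-1.49 ± 0.12, adjusted p = 0.000652, 2 usable SHR arrays), the endothelin-converting enzyme gene Ece1 (-0.59 ± 0.12, adjusted p = 0.0213) and Rab38, a trafficking GTPase gene (0.56 ± 0.12, adjusted p = 0.0273), were among those for SHR against Dahl R. For Dahl S against SHR, Scnn1b and Ednrb held in 16 of 17 alternatives, Gstm1 in 15, Add2 in 11 and Cyp2c11 in 10. Dahl S and SHR share no scan group, and with scan group as a block the Dahl S against SHR calls of Ednrb (-1.31, adjusted p = 0.204), Gstm1 (1.36, adjusted p = 0.0715), Add2 (1.73, adjusted p = 0.179) and Cyp2c11 (-1.98, adjusted p = 0.321) were lost, while Scnn1b passed (adjusted p = 0.0166). For SHR against Dahl R, Cyp2c23 held in all 17, Scnn1b in 16, Ednrb in 10, Ece1 in 9 and Rab38 in 7. Without Dahl S replicate 2 the Cyp2c11 and Add2 calls were lost, and without Dahl R replicate 1 or 2 the SHR against Dahl R calls of Ednrb, Ece1 and Rab38, which the block also ended.

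The adducin partners of Add1 differed in standing. Add2, the beta subunit, was 2.80-fold higher in Dahl S than in SHR, while Dahl S exceeded Dahl R by 1.01 ± 0.32 (adjusted p = 0.271). Add3, the gamma subunit, had 0.24 for Dahl S against SHR on 2 usable SHR arrays (adjusted p = 0.218) and 0.01 for Dahl S against Dahl R (adjusted p = 0.999). Candidates from rat mapping that did not pass between Dahl S and Dahl R included Nppa, which encodes atrial natriuretic peptide (0.61 ± 0.83, adjusted p = 0.914), the exchange factor gene Arhgef11 (-0.25, adjusted p = 0.801) and Fh, fumarate hydratase (-0.30, adjusted p = 0.268).

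**Figure D4:**
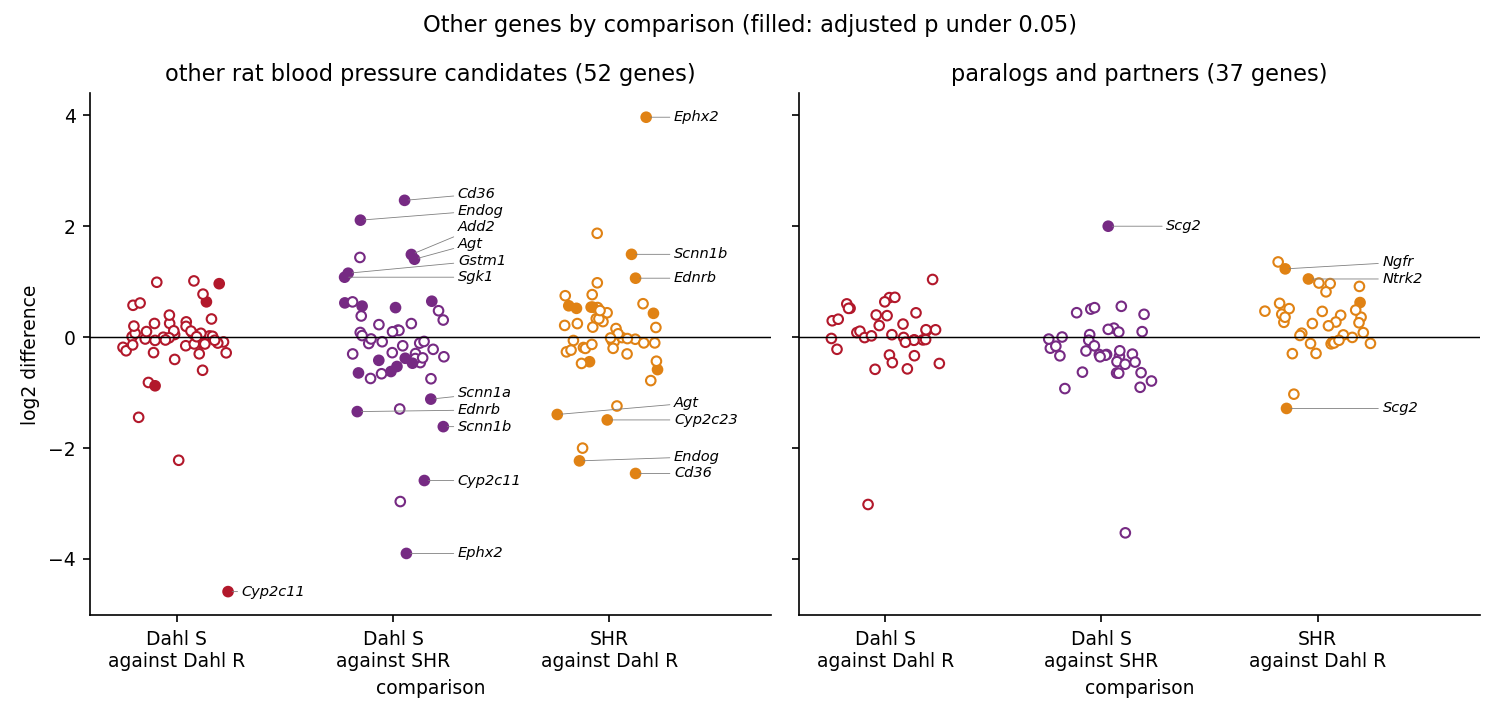
Log2 differences (vertical axis) of 52 of the 53 other blood pressure candidates (left) and 37 paralogs and partners of the 7 genes (right) in the 3 comparisons along the horizontal axis, with points spread sideways for legibility. Each point is a gene, filled where the adjusted p was under 0.05 and named where it also differed by 1 or more. Filled candidates number 4 of 52 between the Dahl strains and 21 and 14 of 52 in the comparisons with SHR, where over all probes 1.40%, 15.7% and 13.0% passed, and Cyp2c11 and Ephx2 lie farthest from 0 among those filled.

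The differences of the 5 candidates were computed under 17 other settings each. Resp18 ran from 4.11 to 4.54 for Dahl S against Dahl R, from 0.46 to 0.87 for Dahl S against SHR and from 3.43 to 3.95 for SHR against Dahl R. Sorcs2 ran from 1.67 to 2.23 for Dahl S against SHR and from -2.08 to -1.63 for SHR against Dahl R, and Nr2f2 from 1.37 to 2.01 and from -1.50 to -0.98. The direction of these differences was the same in every setting run. In the small differences of Rffl and Add1 between Dahl S and SHR the sign changed in 3 and 2 of 17 settings.

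**Figure D5:**
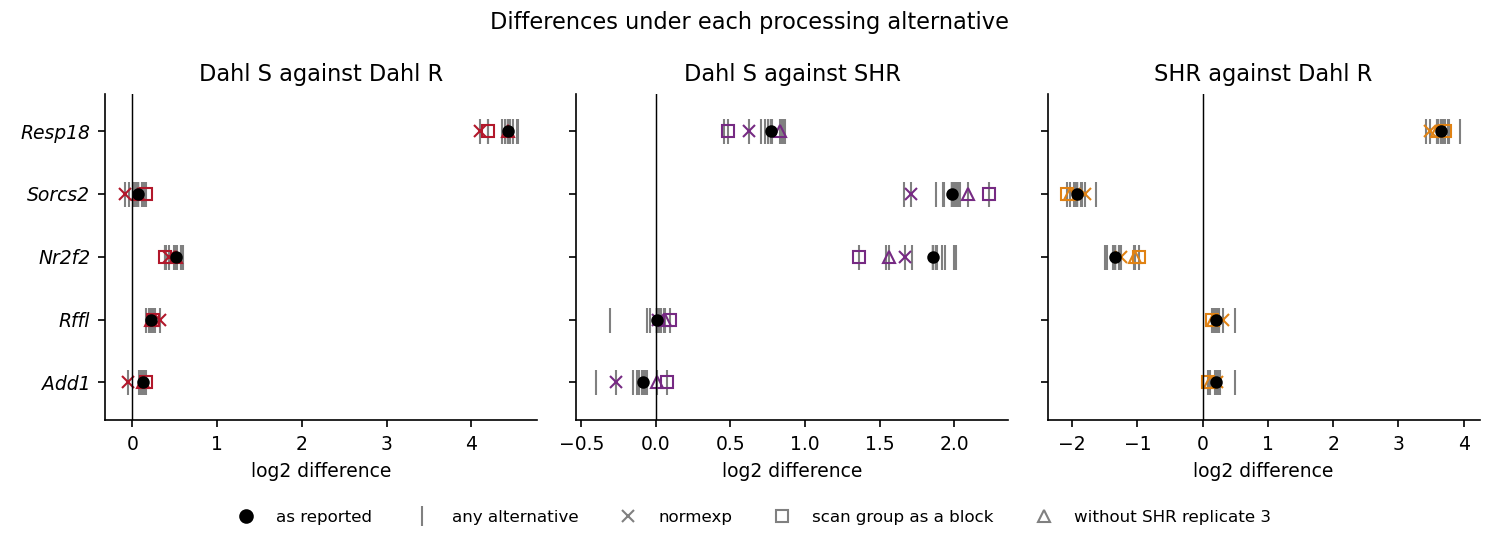
Log2 differences (horizontal axis) of the 5 candidates in each comparison as reported (filled circles) and under 17 other settings (bars), with crosses for normexp, squares for scan group as a block and triangles for the fit without SHR replicate 3. The values for Resp18 against Dahl R and for Sorcs2 and Nr2f2 against SHR stay on one side of 0, whereas those of Rffl and Add1 between Dahl S and SHR straddle it.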

How the data were processed

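Kidney RNA of 9 rats was measured on 1 array each. Per the file headers, the authors deposited scanner output of Agilent Feature Extraction 10.5.1.1, whose processed signal is a background-subtracted intensity with no scaling between arrays, and whose median signal is an intensity without correction. The authors' table of 19407 probes was read as log2, since its columns correlated with the log2 scanner signal at r of 0.97 (SHR replicate 3) and 0.999 to 1 (the others). Its normalization is not given in the sources used here, and it served only as an alternative.

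Of 43553 spots per array, 1417 controls were left out, and 42136 spots held 24684 probes. The log2 processed signal minus the log2 of the array's 75th percentile was used, with outlier-marked spots missing and the spots of a probe averaged. The test covered 16592 probes that had a usable spot in each strain and, on 3 or more arrays, 0.5 or more of their spots well above background. RefSeq identifiers matched 14294 probes to 13903 genes, and the brightest tested probe stood for a gene. No coordinates of probes are given, as the array grid and the reference use different builds. The files used hold no probe sequences, and strain sequence differences under a probe were not tested.

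Strains were compared with limma 3.58.1 in R 4.3.3, fitting strain alone over all 9 arrays, with two-sided p-values and Benjamini-Hochberg adjustment over all probes of a comparison at 0.05. SEs of the candidates come from their strain SDs and those of other genes from limma. The procedure was tested on simulated data. The 7 genes and all lists were chosen with earlier results of these data known. Named genes are the 7, the 10 largest passing genes of each list and comparison, a fixed set of relatives and candidates, and the 3 genes of highest r with each member. Of the listed genes, 1 is counted but not reported here by name. Neighbours passing or adjoining, and Asic4, were named after their values were seen. Alternatives were normexp (offset 50), quantile normalization, another percentile, marked spots kept, no filter, the authors' values, scan group or replicate number as a block, and each array left out. With scan group as a block, SHR replicate 3 adds nothing to a difference, and Dahl S is tied to the other groups through Dahl R replicate 1 alone. In a call lost there, scan and the smaller number of arrays cannot be told apart. The normexp fit used the median signal of a spot, because the mean signal is not among the columns used here. The number of arrays, 3 per strain, limits the precision. No spot was saturated (0 on each array).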

Additional observations from a re-analysis of the deposited data

How the results depend on the processing

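The differences of Resp18, of Sorcs2 and Nr2f2 against SHR, and of Nr2f2 between the Dahl strains kept their sign under all 17 alternatives. Of 255 values for the 5 genes, 242 moved by less than the replicate SD and 13 by more. Counts of calls moved more, and the causes were not tested. Probes past the threshold numbered 233 for Dahl S against Dahl R, 2605 for Dahl S against SHR and 2165 for SHR against Dahl R. In that order, normexp gave 43, 550 and 416, the percentile over unmarked spots 38, 610 and 484, and no filter 93, 1491 and 1188. The share higher in the first strain was 50.2%, 45.1% and 57.9%, and under normexp 65.1%, 70.4% and 41.1%. Scan group as a block gave 866 for Dahl S against SHR (61.3% higher). The percentile over unmarked spots put the median of all genes at -0.33 for Dahl S against SHR (-0.07 as reported) and at 0.34 for SHR against Dahl R (0.09 as reported).

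Of the other candidates (4, 22 and 15 past the threshold), normexp left 0, 9 and 7, the percentile over unmarked spots 0, 8 and 6, and no filter 1, 13 and 7. The authors' values left 2 for Dahl S against Dahl R, and scan group as a block 1 there and 8 for Dahl S against SHR. Of the paralogs and partners (0, 1 and 4), scan group as a block left 0 and the percentile over unmarked spots gave 2 for Dahl S against SHR; for SHR against Dahl R normexp left 0, that percentile 2 and no filter 1. Replicate numbers did not pair the arrays (correlations of deviations from -0.16 to 0.06). With a replicate block, probes numbered 75, 1902 and 1424, other candidates 0, 15 and 10, and paralogs and partners 0, 2 and 4.

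Leaving out 1 array at a time gave 74 to 761, 1280 to 4345 and 960 to 3772 probes, 0 to 6, 11 to 27 and 7 to 20 other candidates, and 0 to 3, 1 to 5 and 0 to 7 paralogs and partners. The highest counts came without SHR replicate 3, and the 5 also without SHR replicate 1. Slide numbers were not used, and scan time stood in for them. Of 39 calls for single genes, those of the neighbours past the threshold and of the 10 largest of each list, 9 held in all 17 alternatives, and 0 reversed. Each candidate rests on 1 spot per array and 3 arrays per strain.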
